A study of Mus musculus with 12 samples.

Results

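Transcript levels of the 10 genes that encode the subunits of the transcription factor NF-κB and its inhibitors were followed through the activation of mouse B cells and their differentiation into plasmablasts. The 10 genes were taken by name and Entrez identifier from the 27179 genes of the deposited count table. They were chosen with earlier results of these data known, so how many of them were called is a description. They are the 5 Rel family genes Nfkb1, Nfkb2, Rel, Rela and Relb, the inhibitor genes Nfkbia, Nfkbib and Nfkbie, and Nfkbiz and Bcl3, which encode inhibitor-like proteins of the nucleus. RNA-Seq covered 12 libraries, with 2 biological replicates at each of 6 stages, of spleen B cells from male C57BL/6 mice between 6 and 12 weeks old. Untreated naive B cells were sorted as TCRβ- B220+ IgM+ IgDhi, and all other cells were cultured with 25 µg/ml of lipopolysaccharide (LPS) from Salmonella typhosa. At 3, 10 and 33 h, activated cells that carried CD69 and had not yet divided were sorted by their undiluted CellTrace Violet dye. On day 4, expanded B cells, which carried CD22 and lacked CD138, and plasmablasts, with the opposite surface phenotype, were harvested. Cells for culture were isolated by negative selection, and those of 3, 10 and 33 h were cultured more densely than those of day 4. Culture density and stage therefore cannot be told apart between 33 h and day 4. No source used here says whether replicates came from separate mice, so the p-values measure the spread between these libraries.

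NF-κB acts as pairs of Rel family proteins, which inhibitor (IκB) proteins hold in the cytoplasm until kinases mark the inhibitors for destruction. In B cells, LPS reaches this pathway through the receptor TLR4, and several of the pathway's own genes, among them Nfkbia and the precursor genes Nfkb1 and Nfkb2, are textbook targets of NF-κB itself. The classical inhibitors thereby close a feedback loop, whereas the nuclear IκB proteins IκBζ and Bcl-3 act with NF-κB on chromatin and alter which genes it regulates.

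The libraries held between 23026619 and 60585587 counts, with a median of 37839944.5, and all 10 genes passed the filter on low counts that kept 12750 genes for testing. Levels are given as RPKM, read counts scaled to exon length and library size, and changes as log2 fold changes with standard errors (SE). Differential expression (DE) means a change that exceeded 1.5-fold in edgeR's glmTreat test at an adjusted p of 0.05. The largest gap between replicates in any of the 10 genes was 1.57-fold, for Rel at 3 h. The 3 h replicates also stood furthest apart over all genes, with an SD of their log2 ratios of 0.529 against 0.303 to 0.385 at other stages. All 10 genes were higher in replicate 1 at 3 h, and 9 of 10 were at 33 h. The median log2 ratio of replicate 1 to replicate 2 over the 10 genes was 0.213 at 3 h and 0.195 at 33 h. Without either 3 h library 10 genes were still called at the first transition and 9 at the second. The 6 B cell markers were each above 3 counts in every library and summed to between 2045 and 10010 CPM (counts scaled to library size alone). Of these, Cd22, whose protein was used to sort the day 4 cells, read 1.36 and 1.14 CPM in plasmablasts against 1576 and 1540 CPM in naive B cells. Pax5 read 6.66 and 5.57 CPM in plasmablasts against 435 and 402 CPM in naive B cells. The plasmablast list, Sdc1 (CD138) among it, summed to 16396 to 16909 CPM in plasmablasts against at most 2684 elsewhere. Jchain held 12638.5 and 11733.1 CPM of the sum in plasmablasts, and Sdc1 106 and 105 CPM. Irf4 of this list was higher at 3 h (2588 and 1952 CPM) than in plasmablasts (828 and 975 CPM). The naive libraries differed in the markers of other cells. All 8 myeloid markers were above 3 counts there and summed to 121 and 275 CPM, against 0.341 to 37.5 CPM in all later libraries, where S100a8 and Elane were at 0. Itgam of this list went the other way, at 8.74 and 5.08 CPM in naive and 24.3 and 21.8 CPM in expanded B cells. Adgre1 likewise stood at 10.7 and 10.6 CPM in naive and at 13.1 and 13.4 CPM in expanded B cells. The 5 erythroid markers summed to 90.3 and 126 CPM in naive cells against at most 1.72 CPM later, the 4 NK cell markers to 15.6 and 17.7 CPM against at most 5.14 CPM, and the 6 T cell markers to no more than 3.39 CPM anywhere. The part of these other cells in the comparisons with naive B cells was not tested.

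At 3 h after LPS all 10 genes rose, at 10 h 9 of them had fallen again, and later steps were smaller for most of them. From naive B cells to 3 h, 10 of 10 genes were DE upwards, where 21.0% of all tested genes were DE in that direction and 45.3% in either. From 3 h to 10 h, 9 of 10 were DE downwards, against 13.4% of all genes (30.8% in either direction). From 10 h to 33 h only Nfkbiz was DE (4.45% of all genes were DE downwards, 14.5% in either direction), from 33 h to expanded B cells none was (3.66% and 10.6%), and from expanded B cells to plasmablasts Nfkb1 and Bcl3 were DE downwards (12.2% and 26.1%). The first and second transitions share the 3 h libraries, as each stage between naive B cells and plasmablasts is shared by its neighbours, so the rise and the fall are not independent measurements. In sorted populations measured in bulk, fewer expressing cells and less RNA per cell cannot be told apart.

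**Figure D1:**
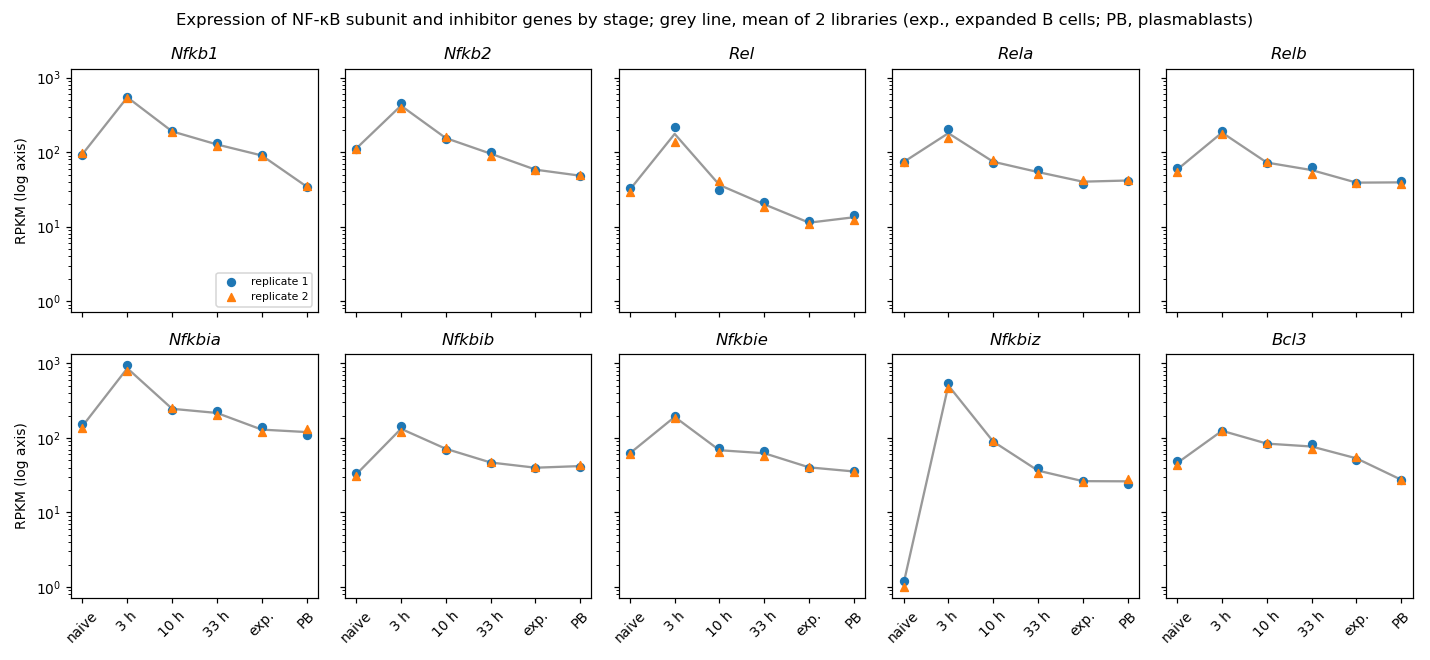
Level of each of the 10 genes (RPKM, log axis) in the 12 libraries by stage, with circles for replicate 1, triangles for replicate 2 and a grey line through the mean of the 2. Every gene was highest at 3 h, and Nfkbiz started from 1.20 and 1.01 RPKM in naive B cells.

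Nfkb1 (Entrez 18033, chromosome 3, 135584655 to 135691969 in GRCm38) encodes p105, the precursor of the p50 subunit. It stood at 92.0 and 96.1 RPKM in naive B cells, 552 and 536 (3 h), 192 and 187 (10 h), 132 and 121 (33 h), 90.5 and 89.9 (expanded B cells) and 33.6 and 35.4 (plasmablasts). No stages overlapped, although naive and expanded B cells did not differ beyond the spread (F-test, adjusted p = 0.48). Nfkb1 rose by 2.53 on the log2 scale at 3 h (SE 0.079, adjusted p = 2.6e-10) and fell by 1.52 by 10 h (SE 0.076, adjusted p = 1.6e-07). It was also the only Rel family gene that was DE at the last transition, where it fell by 1.39 (SE 0.076, adjusted p = 3.5e-07), and its plasmablast level was the lowest of all its stages.

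Nfkb2 (Entrez 18034, chromosome 19, 46300994 to 46312400) encodes p100, the precursor of p52 in the non-canonical arm of the pathway. Its levels were 111 and 112 RPKM in naive B cells, 450.2 and 391 (3 h), 151 and 158 (10 h), 102 and 89.0 (33 h), 58.4 and 57.9 (expanded B cells), and 47.3 and 49.2 (plasmablasts). It rose by 1.91 at 3 h (SE 0.092, adjusted p = 1.2e-08) and fell by 1.45 at 10 h (SE 0.091, adjusted p = 1.1e-06). No pair of neighbouring stages was closer than the spread allowed, since the narrowest steps, naive B cells to 33 h and expanded B cells to plasmablasts, had adjusted F-test p-values of 0.037 and 0.021. Part of the span of Nfkb2 is shared with the counted genes Psd and 4833438C02Rik, and the strand setting of the counting is not given in the sources used here, so reads in the overlap may not be attributable to 1 gene.

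Rel, Rela and Relb encode the subunits that carry a transactivation domain. Rel (Entrez 19696, chromosome 11, 23736847 to 23770969), which encodes c-Rel, the subunit tied most closely to lymphocyte proliferation, stood at 33.3 and 29.5 RPKM in naive B cells, 215 and 137 (3 h), 31.1 and 41.3 (10 h), 21.3 and 18.5 (33 h), 11.7 and 10.9 (expanded B cells) and 14.4 and 12.3 (plasmablasts). The 3 h replicates lay far apart, yet both were above every other library. Rel rose by 2.48 (SE 0.20, adjusted p = 1.9e-06) and fell by 2.28 (SE 0.20, adjusted p = 1e-05), so that the 10 h cells were not distinguished from naive B cells (F-test, adjusted p = 0.37). Among the 5 Rel family genes it had the deepest fall from 3 h.

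Rela (Entrez 19697, chromosome 19, 5637442 to 5648134) encodes p65, the main activating subunit of the canonical pathway. Its libraries read 72.7 and 74.2 RPKM in naive B cells, 206 and 153 (3 h), 70.7 and 77.9 (10 h), 57.2 and 50.8 (33 h), 37.7 and 42.5 (expanded B cells), and 41.6 and 41.6 (plasmablasts). With 1.29 on the log2 scale (SE 0.13, adjusted p = 3.6e-05) it had the smallest rise of the 10 genes at 3 h, and it fell by 1.27 at 10 h (SE 0.13, adjusted p = 8.8e-05). Naive and 10 h libraries overlapped.

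Relb (Entrez 19698, chromosome 7, 19606217 to 19629438), the partner of p52, was at 61.8 and 54.8 RPKM in naive B cells, 190.1 and 176 (3 h), 71.7 and 73.1 (10 h), 63.3 and 51.4 (33 h), 38.9 and 38.9 (expanded B cells) and 40.6 and 37.9 (plasmablasts). It rose by 1.65 (SE 0.11, adjusted p = 3e-07) and fell by 1.34 (SE 0.10, adjusted p = 1e-05). The 33 h and naive libraries overlapped, as did those of plasmablasts and expanded B cells.

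Nfkbia (Entrez 18035, chromosome 12, 55489409 to 55492647) encodes IκBα, the inhibitor that is degraded and resynthesised fastest, and it was the most abundant of the 10 transcripts per length in every library. It reached 940.1 and 784 RPKM at 3 h from 153 and 136 RPKM in naive B cells. Levels then were 240.0 and 253 (10 h), 230.5 and 203 (33 h), 139.7 and 119 (expanded B cells), and 109 and 132 (plasmablasts). The 2.58 rise at 3 h (SE 0.13, adjusted p = 8e-09) and the 1.81 fall at 10 h (log2 change -1.81, SE 0.12, adjusted p = 1.2e-06) left it above its naive level until 33 h. Naive B cells were not distinguished from expanded B cells (F-test, adjusted p = 0.26), nor expanded B cells from plasmablasts (F-test, adjusted p = 0.47).

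Nfkbib (Entrez 18036, chromosome 7, 28758251 to 28766644) encodes IκBβ, an inhibitor with slower turnover. Its libraries held 33.8 and 31.0 RPKM in naive B cells, 145 and 121 (3 h), 69.3 and 73.8 (10 h), 46.3 and 47.4 (33 h), 39.1 and 40.6 (expanded B cells) and 41.2 and 42.8 (plasmablasts). After a rise of 2.03 (SE 0.10, adjusted p = 1.2e-08) it fell by 0.89 at 10 h (SE 0.096, adjusted p = 0.0037), the smallest of the 9 falls, and no later stage reached down to the naive libraries. The call at 10 h depended on the scaling. Scaled by library size alone, without TMM, the change was -0.56 (adjusted p = 0.63), while the median of all genes shifted by 0.33, and relative to that shift the change was -0.89.

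Nfkbie (Entrez 18037, chromosome 17, 45555700 to 45563169) encodes IκBε, another inhibitor of the cytoplasm. It was measured at 62.8 and 61.7 RPKM in naive B cells, 199 and 185 (3 h), 73.1 and 63.9 (10 h), 67.2 and 57.5 (33 h), 40.0 and 40.7 (expanded B cells) and 36.2 and 34.8 (plasmablasts). It rose by 1.62 (SE 0.098, adjusted p = 1.7e-07) and fell by 1.49 (SE 0.097, adjusted p = 1.4e-06). Its 33 h and naive libraries overlapped (F-test, adjusted p = 0.98).

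Nfkbiz (Entrez 80859, chromosome 16, 55811375 to 55838954) encodes IκBζ, a nuclear cofactor induced by Toll-like receptors. With 157 and 101 counts it was nearly silent in naive B cells, at 1.20 and 1.01 RPKM, and it stood at 545 and 468 RPKM at 3 h. Only 7 of the 12750 tested genes had a larger fold rise at this transition. The log2 fold change was 8.83 (SE 0.16, adjusted p = 1.1e-12). Levels fell to 88.5 and 90.8 RPKM at 10 h (log2 change -2.50, SE 0.11, adjusted p = 2e-08) and again to 39.2 and 33.8 (33 h) (-1.30, SE 0.11, adjusted p = 3.9e-05), and stayed at 26.8 and 25.9 (expanded B cells) and 24.2 and 28.2 (plasmablasts). Nfkbiz was the one gene of the 10 that was DE at each of the first 3 transitions, and every activated library remained above the naive libraries.

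Bcl3 (Entrez 12051, chromosome 7, 19808462 to 19822824) encodes a nuclear IκB protein that binds p50 and p52 dimers. It stood at 48.9 and 43.3 RPKM in naive B cells, 125 and 124 (3 h), 81.9 and 86.1 (10 h), 82.5 and 71.1 (33 h), 50.8 and 55.7 (expanded B cells), and 27.3 and 27.6 (plasmablasts). It rose by 1.44 at 3 h (SE 0.098, adjusted p = 8.1e-07). Its change at 10 h, -0.57 (SE 0.096), was not beyond 1.5-fold (adjusted p = 0.56), although the F-test for a change of any size passed (adjusted p = 0.00018). At 10 h and 33 h Bcl3 was still above all naive libraries, and it fell at the last transition by 0.96 (SE 0.098, adjusted p = 0.0015) to its lowest level.

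**Figure D2:**
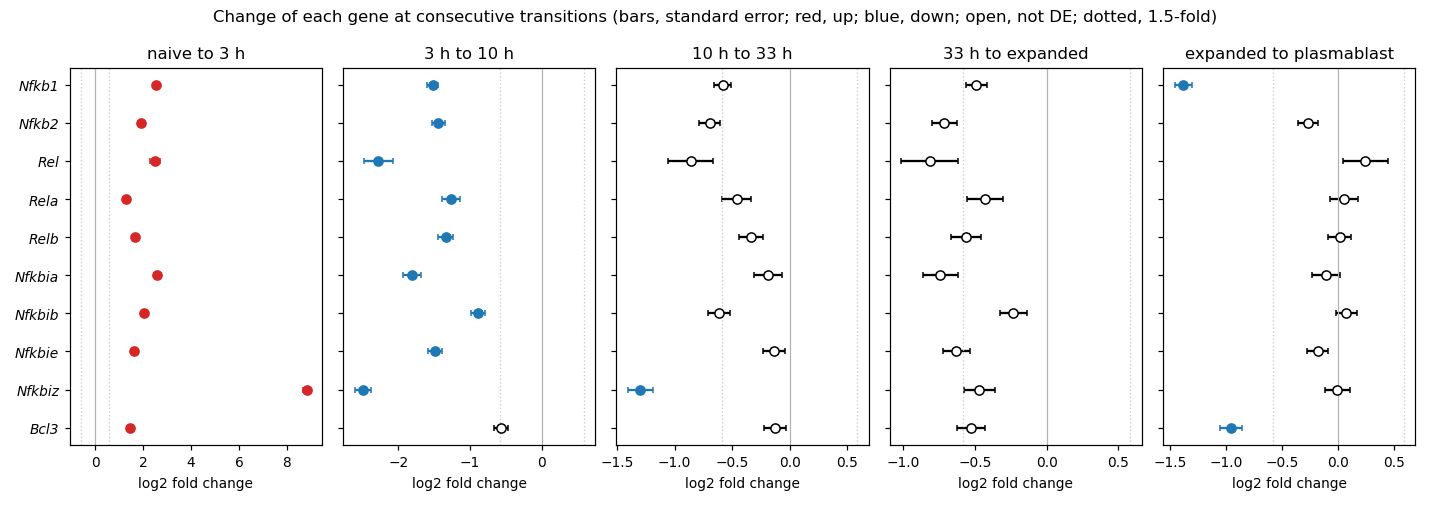
Log2 fold change of each gene at the 5 consecutive transitions, with bars for the SE, red for DE upwards, blue for DE downwards, open symbols for genes that were not DE and dotted lines at 1.5-fold. All 10 symbols are red at the first transition, 9 are blue at the second, and none is coloured from 33 h to expanded B cells.

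The slow part of the decline was spread over many genes. Its steps share the 33 h libraries, where 9 of the 10 genes were higher in replicate 1. From 10 h to 33 h the F-test passed for 7 of 10 genes, all lower at 33 h, where 45.5% of all genes passed it in either direction. The 3 genes that missed were Nfkbia, Nfkbie and Bcl3, with log2 changes of -0.19, -0.13 and -0.13. From 33 h to expanded B cells all 10 log2 changes were negative, between -0.23 for Nfkbib and -0.82 for Rel, and the F-test passed for 9 of 10, against 39.6% of all genes. Of these 10 changes, glmTreat called 0 beyond 1.5-fold after adjustment and 3 at an unadjusted p under 0.05, and DESeq2's Wald test against the same fold called 0 as well. Without the second 33 h library Nfkb2 was called there (-0.81, adjusted p = 0.039).

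Across the stages, each gene was highest at 3 h and second at 10 h, and the step between them passed the F-test for all 10 genes, against 62.3% of all genes. They differed in where they were lowest. Naive B cells held the lowest level of Nfkbib and Nfkbiz, expanded B cells that of Rel, Rela and Relb, and plasmablasts that of Nfkb1, Nfkb2, Nfkbia, Nfkbie and Bcl3. Of the 50 pairs of neighbouring ranks, 18 did not differ beyond their spread. Over the 15 fixed pairs of stages between 39.6% and 77.4% of all genes passed the F-test. That share is not like for like, since neighbouring ranks are by construction the closest levels of each gene. Expanded B cells and plasmablasts were neighbours that did not differ for 7 genes, Rel, Rela, Relb, Nfkbia, Nfkbib, Nfkbie and Nfkbiz. Their adjusted F-test p-values ran from 0.12 to 0.96, at a transition where 56.9% of all genes passed the F-test. The highest stage mean exceeded the lowest 459-fold for Nfkbiz, 15.8-fold for Nfkb1, 15.6-fold for Rel and between 4.10-fold and 8.71-fold for the other genes.

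At the last transition the remaining genes showed little difference. The log2 changes from expanded B cells to plasmablasts were -0.27 for Nfkb2 (F-test, adjusted p = 0.021), 0.24 for Rel (SE 0.20), -0.18 for Nfkbie, -0.11 for Nfkbia, and between -0.01 and 0.07 for Rela, Relb, Nfkbib and Nfkbiz. With library size alone the values of Rel, Rela, Relb and Nfkbib turned negative, at -0.098, -0.29, -0.33 and -0.27, while the median of all genes shifted by -0.34, and none was called. Relative to that shift they were 0.24, 0.05, 0.01 and 0.07. Nfkb1 and Bcl3 were called with every alternative tried.

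Between the ends of the series, naive B cells and plasmablasts, 7 of 10 genes were DE, where 50.0% of all tested genes were (26.6% upwards and 23.4% downwards). Nfkbiz was higher in plasmablasts by 4.56 on the log2 scale (SE 0.14, adjusted p = 4.5e-11). The other 6 were lower, with log2 changes of -1.45 for Nfkb1, -1.21 for Nfkb2, -1.23 for Rel, -0.82 for Rela, -0.81 for Nfkbie and -0.75 for Bcl3, and with adjusted p-values from 4.7e-08 to 0.035. The calls of Rela, Nfkbie and Bcl3 were lost with DESeq2's Wald test (adjusted p = 0.21, 0.089 and 0.27) and without the second plasmablast library (0.061, 0.055 and 0.078). Rela and Bcl3 also lost theirs without the first plasmablast library (0.061 and 0.089), Rela without the second naive library (0.065) and Bcl3 without the first (0.20). Relb (-0.57), Nfkbia (-0.27) and Nfkbib (0.37) were not called.

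The make-up of the Rel family transcripts shifted as their sum moved. Summed over the 5 genes, the level was 371 and 366 RPKM in naive B cells, 1614 and 1392 (3 h), 517 and 537 (10 h), 375 and 331 (33 h), 237 and 240.1 (expanded B cells), and 178 and 176 (plasmablasts). The share of Nfkb1 was 24.8% and 26.2% in naive B cells, between 34.2% and 38.5% in the 8 libraries from 3 h to expanded B cells, and 18.9% and 20.1% in plasmablasts. Plasmablasts held the highest shares of Rela (23.4% and 23.6%) and of Relb (22.9% and 21.5%), and at 3 h Rela was at its lowest share, 12.8% and 11%. The share of Nfkb2 stayed between 24.1% and 30.5% in all 12 libraries.

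**Figure D3:**
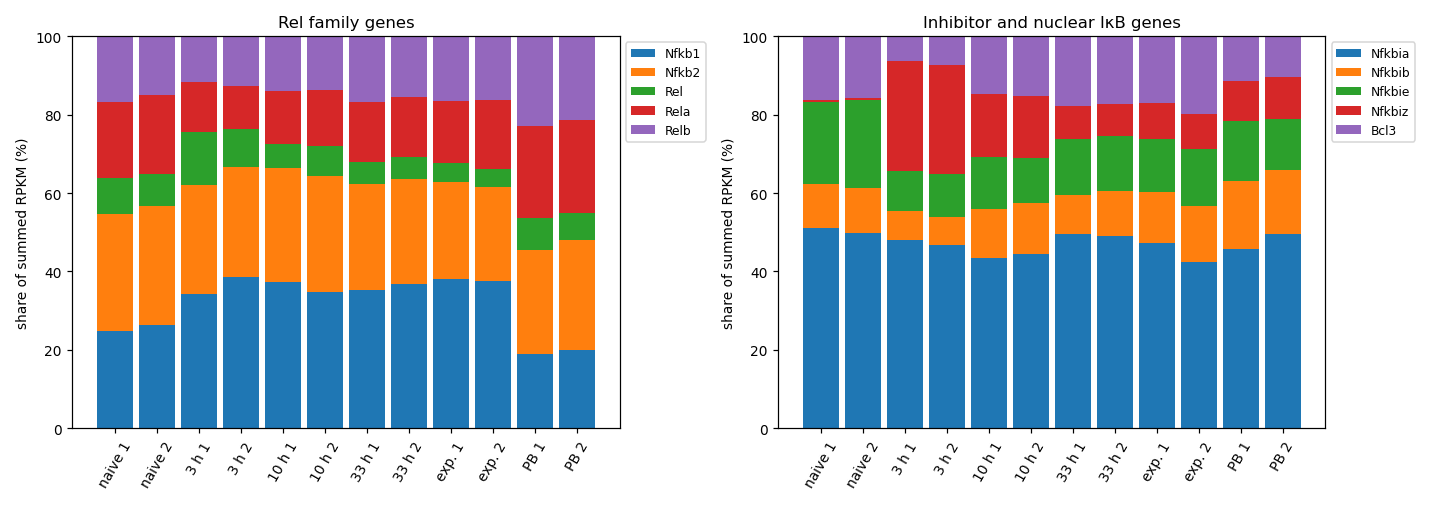
Share of summed RPKM (%) that each gene held in each of the 12 libraries, for the 5 Rel family genes on the left and the 5 inhibitor and nuclear IκB genes on the right. Nfkb1 held 18.9% and 20.1% of the Rel family sum in plasmablasts against 38.1% and 37.5% in expanded B cells, and Nfkbiz went from 0.399% and 0.370% in naive B cells to 27.9% and 27.8% of the inhibitor sum at 3 h.

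Among the 5 inhibitor and nuclear IκB genes, Nfkbia held between 42.3% and 51.0% of the summed RPKM in all libraries. Nfkbiz went from 0.399% and 0.370% in naive B cells to 27.9% and 27.8% at 3 h, and to 16.0% in both 10 h libraries. Ratios between genes show the same unequal changes. Rela exceeded Rel 2.18 and 2.52 times in naive B cells, but at 3 h their levels were nearly equal, with ratios of 0.960 and 1.12, and in expanded B cells the ratios were 3.22 and 3.91. The ratio of Nfkb1 to Nfkb2 was below 1 in naive B cells (0.827 and 0.859) and plasmablasts (0.711 and 0.720) and between 1.19 and 1.55 in the libraries of the other stages. The ratio of Nfkbiz to Bcl3 was 0.0244 and 0.0233 in naive B cells and 4.35 and 3.76 at 3 h. The 3 classical inhibitor genes together amounted to 0.672 and 0.625 of the Rel family sum in naive B cells and to 1.05 and 1.19 of it in plasmablasts, and the libraries of the 4 stages between lay from 0.726 to 0.929. These shares and ratios were not tested between stages.

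**Figure D4:**
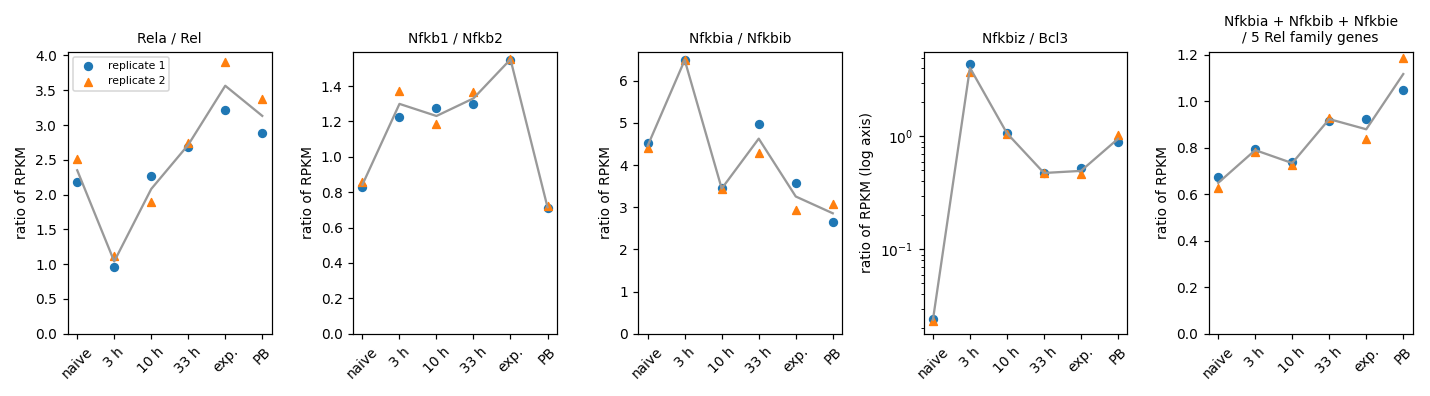
Ratios of RPKM between genes in each library by stage, with circles for replicate 1, triangles for replicate 2 and a grey line through the means (log axis only for Nfkbiz to Bcl3). The Rela to Rel ratio dips to 0.960 and 1.12 at 3 h, and the ratio of the 3 classical inhibitor genes to the 5 Rel family genes is highest in plasmablasts, at 1.05 and 1.19.

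Because several of these genes are known targets of NF-κB, their promoters were searched for the kappa-B consensus, the sequence that Rel family dimers bind, on both strands. The RefSeq promoter table (GRCm38.p6) held 7 of the 10 genes, without Nfkb1, Relb and Nfkbiz. Within 250 bases before and 50 after a listed start, 5 of the 7 had a match, Nfkb2, Rel, Nfkbia, Nfkbie and Bcl3, and Rela and Nfkbib had none. Among all 32851 listed promoters 8.46% held a match, and of all 27025 genes 9.55%. The 250 bases before the start are shown for the inhibitor with the highest level, for the precursor and the subunit with the most overlapping matches, and for Rela as a gene without a match, 5′ to 3′ on the gene's strand with matches in capitals. Nfkbia is at chr12:55492648-55492897 (minus strand), Nfkb2 (the first of its 3 listed starts) at chr19:46304487-46304736 (plus strand), Rel at chr11:23770970-23771219 (minus strand) and Rela at chr19:5637291-5637540 (plus strand).
Nfkbia: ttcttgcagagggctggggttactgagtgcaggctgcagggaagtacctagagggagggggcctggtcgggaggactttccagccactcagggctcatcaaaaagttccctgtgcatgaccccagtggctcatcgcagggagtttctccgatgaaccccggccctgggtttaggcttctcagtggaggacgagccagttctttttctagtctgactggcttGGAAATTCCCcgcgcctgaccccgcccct
Nfkb2: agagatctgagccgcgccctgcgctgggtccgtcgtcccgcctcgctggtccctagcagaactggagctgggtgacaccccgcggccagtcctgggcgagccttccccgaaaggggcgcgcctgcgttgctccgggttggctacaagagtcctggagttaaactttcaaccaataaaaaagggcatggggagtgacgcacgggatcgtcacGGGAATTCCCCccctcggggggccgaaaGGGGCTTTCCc
Rel: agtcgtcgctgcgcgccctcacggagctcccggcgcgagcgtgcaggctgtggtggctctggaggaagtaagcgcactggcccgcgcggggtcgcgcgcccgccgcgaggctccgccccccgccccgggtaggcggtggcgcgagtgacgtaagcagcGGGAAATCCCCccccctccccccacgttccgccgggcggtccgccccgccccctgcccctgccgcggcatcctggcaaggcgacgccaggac
Rela: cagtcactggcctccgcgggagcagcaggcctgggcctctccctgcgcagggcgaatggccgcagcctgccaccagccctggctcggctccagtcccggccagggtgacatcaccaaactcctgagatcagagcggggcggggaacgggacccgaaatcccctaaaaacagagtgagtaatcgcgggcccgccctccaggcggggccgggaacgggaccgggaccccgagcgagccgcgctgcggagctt

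The match of Nfkbia lay 29 to 20 bases before the start and read on the opposite strand. In Nfkb2 a match on both strands lay 39 to 30 bases before the start, another overlapped it at 38 to 29 bases, and the last lay 11 to 2 bases before the start. Rel had matches on both strands between 92 and 82 bases before its start, also overlapping. A match is a stretch of letters and no measure of binding.

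Over the 12 libraries, which the genes share along with the 3 h peak, the closest pair among the 10 genes was Rel and Rela, with a Pearson correlation of log2 RPKM of 0.994, followed by Relb and Nfkbie at 0.990. Nfkbiz was least like Rela (0.480), Rel (0.520) and Nfkb2 (0.549) and most like Nfkbib (0.887). Out of 8603 well expressed genes, those with the most similar course were Smarce1 and Ddx10 for Nfkb1 (0.995 and 0.994), Psd for Nfkb2 (0.995), Zbtb41 and Gpbp1 for Rel (both 0.991) and Rnf2 and Gpbp1 for Rela (0.995 and 0.993). For Relb they were B3gnt2 and Psd (0.990 and 0.987), for Nfkbia Ythdf2 and Syngr2 (0.987 and 0.985), for Nfkbib Ppig and Larp4 (0.993 and 0.992), and for Nfkbie Macir and Atmin (0.988 and 0.986). Nfkbiz was matched most closely by Dnajc21 (0.992) and by Zc3h12a (0.990), which encodes the RNase Regnase-1, and Bcl3 by Ddx31 and Dnajc27 (both 0.992). All of these were highest at 3 h. Psd overlaps Nfkb2 in the annotation, as given above.

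A list of 48 genes, called upstream genes here, holds adaptors, kinases, ubiquitin ligases and other regulators. It is not strictly upstream, since it includes the nuclear inhibitor gene Nfkbid and the feedback inhibitor gene Tnfaip3. Of the 48 genes, 45 were tested, and Ikbkg, Tab3 and Irak1 were left out with the X-linked genes. At 3 h 13 of them rose and 8 fell, with a median log2 change of 0.20 against -0.03 for all genes. Of all tested genes, 21.0%, 17.4%, 10.1%, 6.94% and 13.9% were DE upwards and 24.3%, 13.4%, 4.45%, 3.66% and 12.2% downwards at the 5 transitions in turn. In either direction 46.7% of the upstream genes were DE at 3 h and 28.9% at the last transition, near the 45.3% and 26.1% of all genes. Traf1, a signalling adaptor of TNF receptors, had the largest rise, from 8.23 to 207 RPKM (log2 change 4.65, SE 0.10, adjusted p = 1e-11), and Traf5, an adaptor of the same family, the largest fall, from 46.9 to 7.17 RPKM (-2.71, SE 0.11, adjusted p = 1.3e-09). From 3 h to 10 h 7 rose and 10 fell, with Nfkbid, which encodes the nuclear inhibitor IκBNS, falling from 423 to 41.4 RPKM (-3.35, SE 0.24, adjusted p = 1.8e-06). Tnip3 had the largest rise there, and also from 33 h to expanded B cells, but its stage means did not exceed 1.85 RPKM. From 10 h to 33 h 1 upstream gene rose, Nod2, an intracellular sensor of bacterial wall fragments, from 0.157 to 0.865 RPKM (2.44, SE 0.20, adjusted p = 3.7e-06), and 0 fell. From 33 h to expanded B cells 2 rose and 1 fell, Traf1, from 101 to 38.5 RPKM (-1.40, SE 0.089, adjusted p = 6.3e-06). At the last transition 3 rose and 10 fell. Tnip2, which encodes a partner of the ubiquitin-editing protein A20, rose from 4.92 to 10.8 RPKM (1.13, SE 0.11, adjusted p = 0.00024), and Tnip3 fell by 3.48 (SE 0.39, adjusted p = 2.5e-05).

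The target list holds genes taken as targets of NF-κB. It was chosen with earlier results of these data known, so its counts are a description. Of 44 target genes, all tested, 34 rose and 6 fell at 3 h (median log2 change 3.14, also with genes at the floor of 3 counts set to their bound), and 9 rose and 27 fell at 10 h (-1.50). One of them, Cd69, encodes a protein used to sort the cells of 3 to 33 h. The cytokine gene Il10 was at 0 and 1 count in naive B cells and at 10.4 RPKM at 3 h, at least 132-fold higher when naive B cells are set to 3 counts in each library. The chemokine gene Ccl5 fell at 3 h (-5.43, SE 0.63, adjusted p = 1.3e-05) and had the largest rise at 10 h, from 0.210 to 15.0 RPKM (6.52, SE 0.58, adjusted p = 2.6e-06), and NK and T cell markers were likewise higher in naive than in 3 h libraries, their part in its fall not being tested. Ccl4 had the largest fall there, from 37.0 to 2.50 RPKM (-3.87, SE 0.27, adjusted p = 3.8e-07). From 10 h to 33 h 13 fell, with Ccr7, the receptor that guides B cells within lymphoid organs, in the lead (338 to 71.6 RPKM, -2.24, SE 0.16, adjusted p = 1.6e-06), and 1 rose. From 33 h to expanded B cells 4 rose and 12 fell, and Tnf had the largest fall (-2.24, SE 0.17, adjusted p = 6.8e-06). In plasmablasts 6 rose and 14 fell, the largest rise being that of the costimulatory receptor gene Tnfrsf9 (2.45, SE 0.34, adjusted p = 0.00023), which reached 0.987 RPKM. Il6 went from 5.03 RPKM in expanded B cells to 0 and 1 count, at least 47.0-fold lower with 3 counts in each plasmablast library. The medians of the last 3 transitions were -0.52, -0.17 and -0.07, and those of the 10 subunit and inhibitor genes were 1.97, -1.47, -0.52, -0.54 and -0.06 from the first transition to the last.

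**Figure D5:**
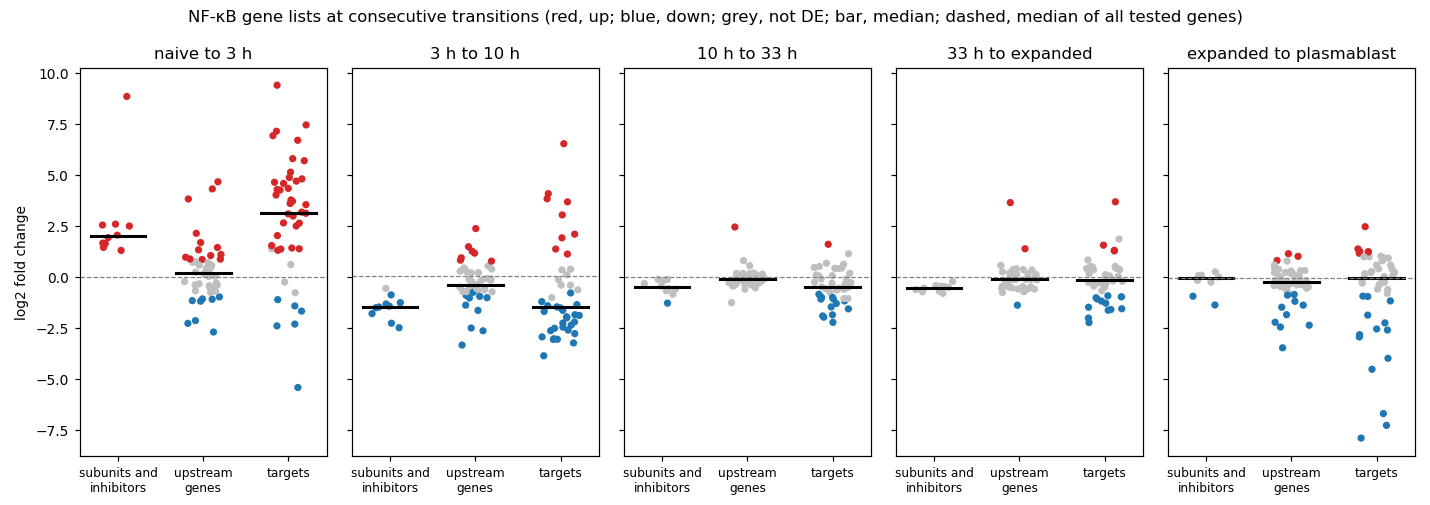
Log2 fold changes at the 5 consecutive transitions of the 10 subunit and inhibitor genes, 45 upstream genes and 44 target genes, with red for DE upwards, blue for DE downwards, grey for not DE, a bar at each list's median and a dashed line at the median of all tested genes. Medians of the 10 genes and of the targets lie at 1.97 and 3.14 at the first transition and at -0.06 and -0.07 at the last; genes with no more than 3 counts in a stage are drawn at their fitted value, which is no bound.

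From naive B cells to plasmablasts, 4 upstream genes rose and 16 fell, and 19 target genes rose and 12 fell. In either direction 44.4% of the upstream and 70.5% of the target genes were DE, against 50.0% of all genes. Map3k14, which encodes the kinase NIK that starts the processing of p100, had the largest fall among the upstream genes. Its level was 23.6 and 23.9 RPKM in naive B cells and 0.792 and 0.913 RPKM in plasmablasts (-4.79, SE 0.21, adjusted p = 7e-10). Nod2 had the largest rise, from 0.546 to 2.24 RPKM (2.04, SE 0.175, adjusted p = 1.6e-06). Among the targets Il10 was at least 276-fold higher in plasmablasts, with naive B cells at 3 counts in each library, and Lta, which encodes lymphotoxin α, at least 238-fold lower, with plasmablasts at 3 counts.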

How the data were processed

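The authors sequenced polyA RNA from TruSeq libraries on an Illumina NextSeq as paired 81 bp reads, aligned them to mm10 with Rsubread 1.28.0 and counted them with featureCounts on its inbuilt Entrez annotation; the submitters' processing notes also name CASAVA 1.8.2. The deposited values are raw counts per gene, neither normalized nor filtered, with an exon length per gene, and each of the 12 per-sample files was identical to its column of the series table. Of 27179 genes, 25275 were matched to the annotation. Mitochondrial, ribosomal RNA, variable immunoglobulin, X and Y chromosome and unmatched genes were removed, and filterByExpr kept 12750 of the remaining 23700.

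Counts were fitted with edgeR 4.0.16 in R 4.3.3 (TMM scaling, robust quasi-likelihood, 1 layout of all 12 libraries), so that stages share an estimate of the spread. glmTreat tested against a 1.5-fold change and the quasi-likelihood F-test against no change, both adjusted over all tested genes with Benjamini-Hochberg at 0.05. The SE was derived from the F statistic. RPKM used TMM-scaled library sizes, with a prior count of 2 on the log2 scale for correlations, and CPM used total counts. Stages with at most 3 counts in both libraries, equal to 0.0495 to 0.130 CPM, were treated as at the floor, which covers counting error only. The steps were tested on simulated data.

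The 10 genes, the upstream, target and marker lists and the tests were chosen with earlier results of these data known. Named were the 10 genes at every transition, for each list the DE gene with the largest rise and the largest fall at each transition, and for each of the 10 the 2 genes with the highest correlation among those whose mean log2 CPM was 3 or more; some genes that this rule names are not reported here. Alternatives were DESeq2 1.42.0 size factors or Wald test, library size alone, the F-test, no filter or 10 counts in every library, other dispersion settings, a replicate block, all gene classes kept, only the 4 libraries compared, and leaving out each library in turn.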

Additional observations from a re-analysis of the deposited data

How the results depend on the processing

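The counts of genes called, 10 at 3 h, 9 at 10 h and 2 in plasmablasts against expanded B cells, stayed within 1.5-fold of these values under every alternative tried. From 10 h to 33 h the count of 1 became 7 with the F-test and 2 with no filter, from 33 h to expanded B cells 0 became 9 and 1, and from naive B cells to plasmablasts 7 became 4 with DESeq2's Wald test. Leaving out 1 library at a time gave counts between 0 and 1 from 33 h to expanded B cells and between 4 and 7 from naive B cells to plasmablasts. Of 1380 log2 fold changes recomputed, 11 lost a call, 23 gained one and 17 changed sign, the last all at the transition from expanded B cells to plasmablasts and none of them called. There Nfkbiz was 0.024 with DESeq2's size factors and with its Wald test, 0.013 with 10 counts in every library, 0.0010 with all classes kept and 0.018 with only the 4 libraries compared. With library size alone Rel was -0.098, Rela -0.29, Relb -0.33 and Nfkbib -0.27, and with no filter Relb was -0.021. Without 1 library the lowest and highest values of those that changed sign were -0.097 and 0.13 for Nfkbiz, -0.012 and 0.088 for Relb, -0.035 and 0.13 for Rela, and -0.23 and 0.049 for Nfkbia. The cause of these changes was not tested. Of 840 recomputed stage means of RPKM, 149 moved by more than 1 SD of the replicates, and all lay between 0.788 and 1.22 times the value reported. The filter of 10 counts in every library left 9963 genes tested instead of 12750, and genes that it removed could not be called. Over all genes the calls from 33 h to expanded B cells were 1352, but 712 with 10 counts in every library, 895 with DESeq2's Wald test, 855 without the first 33 h library and 5053 with the F-test, which called more genes at every transition. Of 276 counts of upstream or target genes called, 19 moved over 1.5-fold, 9 of them with the F-test; the other 10 moved from 10 h to 33 h (1 upstream gene became 2 or 3, 14 targets became 9), from 33 h to expanded B cells (16 targets became 8) and from naive B cells to plasmablasts (31 targets became 20). Same-numbered libraries shared no strong deviation: the correlation of same-numbered deviations ran from -0.14 to 0.084 over 15 stage pairs. The highest was that of expanded B cells and plasmablasts. Low correlations cannot tell whether same-numbered libraries came from the same mice or cultures. With a replicate block the counts called were 10, 9, 1, 0, 2 and 7, as without it. With 2 libraries per stage no outlier could be assessed.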

Other observations

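Prkcb, which encodes a protein kinase C of B cell receptor signalling and was chosen after its values were seen, moved opposite to the 10 subunit and inhibitor genes at 3 h. It read 151 and 155 RPKM in naive B cells, 74.1 and 61.5 (3 h), between 112 and 142 in the libraries from 10 h to expanded B cells, and 21.8 and 21.0 (plasmablasts). It was lowest in plasmablasts and had another low at 3 h, where the 10 genes peaked.

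Tnfaip3, which encodes the feedback inhibitor A20 and was also chosen after its values were seen, stood at 10.3 and 9.75 RPKM in naive B cells, 235 and 162 (3 h), 30.5 and 32.7 (10 h) and 25.9 and 21.8 (33 h). In expanded B cells it was at 15.7 and 12.3 and in plasmablasts at 19.9 and 14.6, and the libraries of these late stages overlapped.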
